A study of Mus musculus with 20 samples.

Results

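The antiviral effector genes Isg15, Ifit1, Ifit2, Ifit3, Ifit3b, Oas1a, Oas2, Oasl1, Oasl2, and Rsad2 were followed in the mouse heart over 4 diets. They were chosen by gene symbol, found from the Ensembl identifier, among the 15956 genes with deposited counts, and all 10 of 10 passed the filter on low counts. RNA was sequenced from the left ventricle of 20 aged male mice, 5 in each group, to ask how protein restriction alters the heart with and without a high-fat diet. NP mice ate normal protein and LP mice low protein, both on diets lower in fat, while HF mice ate a high-fat diet with normal protein and HF + LP mice a high-fat diet with low protein. Casein was the protein source in every diet. Every mouse is labelled as 18 months old, although the study's methods place collection earlier. A transgene or deletion is named for none of the groups, and the strain is not given in the sources used here. Each label names a separate animal, so mice are the replicates, and mice are named below by group and animal number. The label of LP mouse 5 alone also carries a sample number, whose meaning is not given.

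The genes belong to the response to type I interferon. Interferon binds its receptor, and the signal reaches a complex with IRF9 that binds the interferon-stimulated response element of target promoters. ISG15 is a ubiquitin-like protein that is attached to other proteins, IFIT proteins bind foreign RNA, OAS enzymes make 2′-5′ oligoadenylates that activate RNase L when they meet double-stranded RNA, and RSAD2 (viperin) makes an antiviral nucleotide. Many of these genes are known to be induced together, in cardiomyocytes, macrophages, and other cells of the heart.

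The members lie at 5 places in GRCm38. Ifit2, Ifit3, Ifit3b, and Ifit1 stand in that order on the forward strand of chromosome 19, from 34550694 to 34650009. Oasl2 and Oasl1 are neighbours on the forward strand of chromosome 5, from 114896936 to 114937915. Oas2 (120730333 to 120749853) and Oas1a (120896256 to 120907521) lie on the reverse strand of the same chromosome. Isg15 is on the reverse strand of chromosome 4 from 156199424 to 156200818, and Rsad2 on the reverse strand of chromosome 12 from 26442746 to 26456452. All are protein-coding genes.

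The promoters are shown because the members moved together and the response element is the sequence that the interferon-activated complex binds. The windows, credited to RefSeq on GRCm38.p6, hold the 250 bases before and 50 after each annotated start. They were searched on both strands for the core of the element, GAAA followed after any 2 bases by GAAA. Of the 9 members with a window (Oas2 had none), 6 held a match, against 3.99% of the 27025 genes with a window. Stretches with the matches are printed 5′ to 3′ on the strand of the gene, with the matching letters in capitals, which read TTTC, any 2 bases, and TTTC where the match is on the opposite strand.
Isg15: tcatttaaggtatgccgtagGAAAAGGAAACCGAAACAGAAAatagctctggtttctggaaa
Oas1a: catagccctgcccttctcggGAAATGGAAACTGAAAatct
Rsad2: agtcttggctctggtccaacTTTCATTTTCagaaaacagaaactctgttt
Ifit3: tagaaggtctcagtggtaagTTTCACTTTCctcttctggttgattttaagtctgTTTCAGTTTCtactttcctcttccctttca
Ifit3b: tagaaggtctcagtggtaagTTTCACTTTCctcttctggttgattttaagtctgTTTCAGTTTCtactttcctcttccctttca
Ifit1: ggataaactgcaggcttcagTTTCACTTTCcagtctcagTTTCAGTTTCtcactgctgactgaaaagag

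These stretches are chr4:156200855-156200916 (Isg15), chr5:120907526-120907565 (Oas1a), chr12:26456543-26456592 (Rsad2), chr19:34583353-34583436 (Ifit3), chr19:34607749-34607832 (Ifit3b), and chr19:34640765-34640833 (Ifit1). Isg15 holds 3 overlapping matches in a single run of capitals, Oas1a 2 overlapping matches, and Ifit1, Ifit3, and Ifit3b 2 separate ones. Ifit3 and Ifit3b are the same in the printed stretch, and 259 of 274 aligned positions of their windows are identical (94.5%). No match was found for Ifit2, Oasl1, or Oasl2. With 1 mismatch allowed all 9 members held the motif, as did 38.9% of all genes with a window. A match describes letters and not a bound site.

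**Figure D1:**
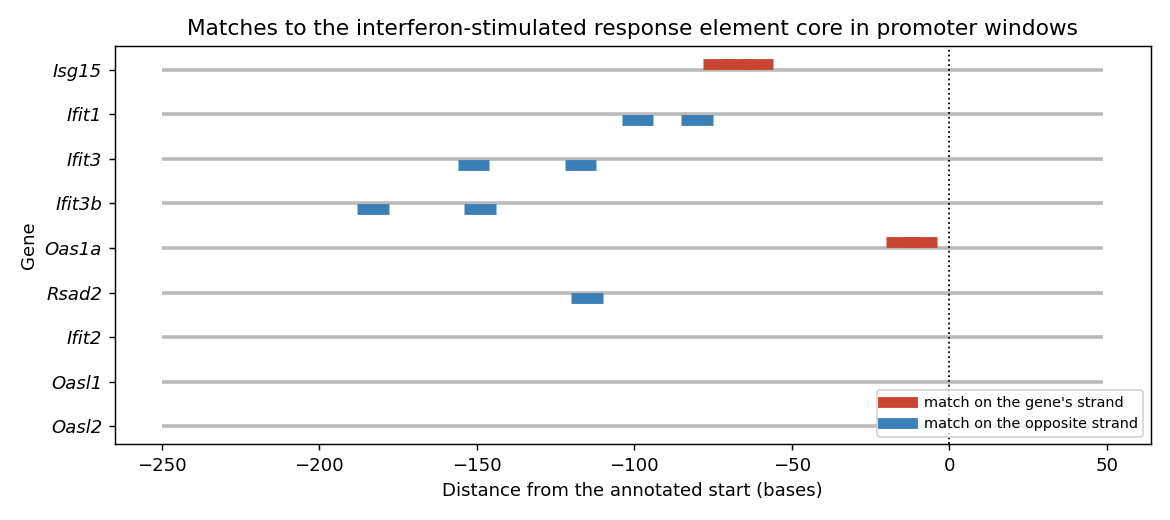
Position of matches to the response element core in the promoter windows of 9 members, by distance in bases from the annotated start (dotted line), with matches on the strand of the gene above the grey window line and those on the opposite strand below it. The Isg15 and Oas1a blocks are overlapping matches, and Ifit2, Oasl1, and Oasl2 have none.

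QuantSeq reads come from the 3′ end of a transcript, so counts do not depend on how long a transcript is. Values below are normalized counts, the read counts scaled to a common library size. Total counts per mouse lay between 12559607 and 23331907. All 8 cardiomyocyte markers examined were abundant in every group. LP mouse 13 was least like its group, with a median correlation of 0.905 against 0.936 or more for the other mice. LP mouse 20 carried transcripts of T and NK cell markers at a summed 487 CPM (counts scaled to library size), where the other 19 mice had at most 5.71. Adipocyte markers summed to 187 CPM in LP mouse 13 and 68.4 in LP mouse 20, against at most 32.8 in any other mouse. The comparisons of the members with LP are therefore also given without these mice. These are bulk samples, in which fewer cells of a type and less RNA per cell cannot be told apart.

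All 10 members had their highest mean in HF. For 8 of them the order of the means was HF, NP, HF + LP, and LP. Oas1a followed HF, HF + LP, LP, and NP, and Rsad2 followed HF, HF + LP, NP, and LP. Without LP mouse 20 the same 8 members kept their order, and LP was the lowest group for Oas1a as well. Averaged over the 20 mice the members spanned from 909 normalized counts for Rsad2 to 9.04 for Oas1a. Oas1a and Oasl1 (33.1) were under the base mean of 50 that the study requires of a called gene, so neither could be called.

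**Figure D2:**
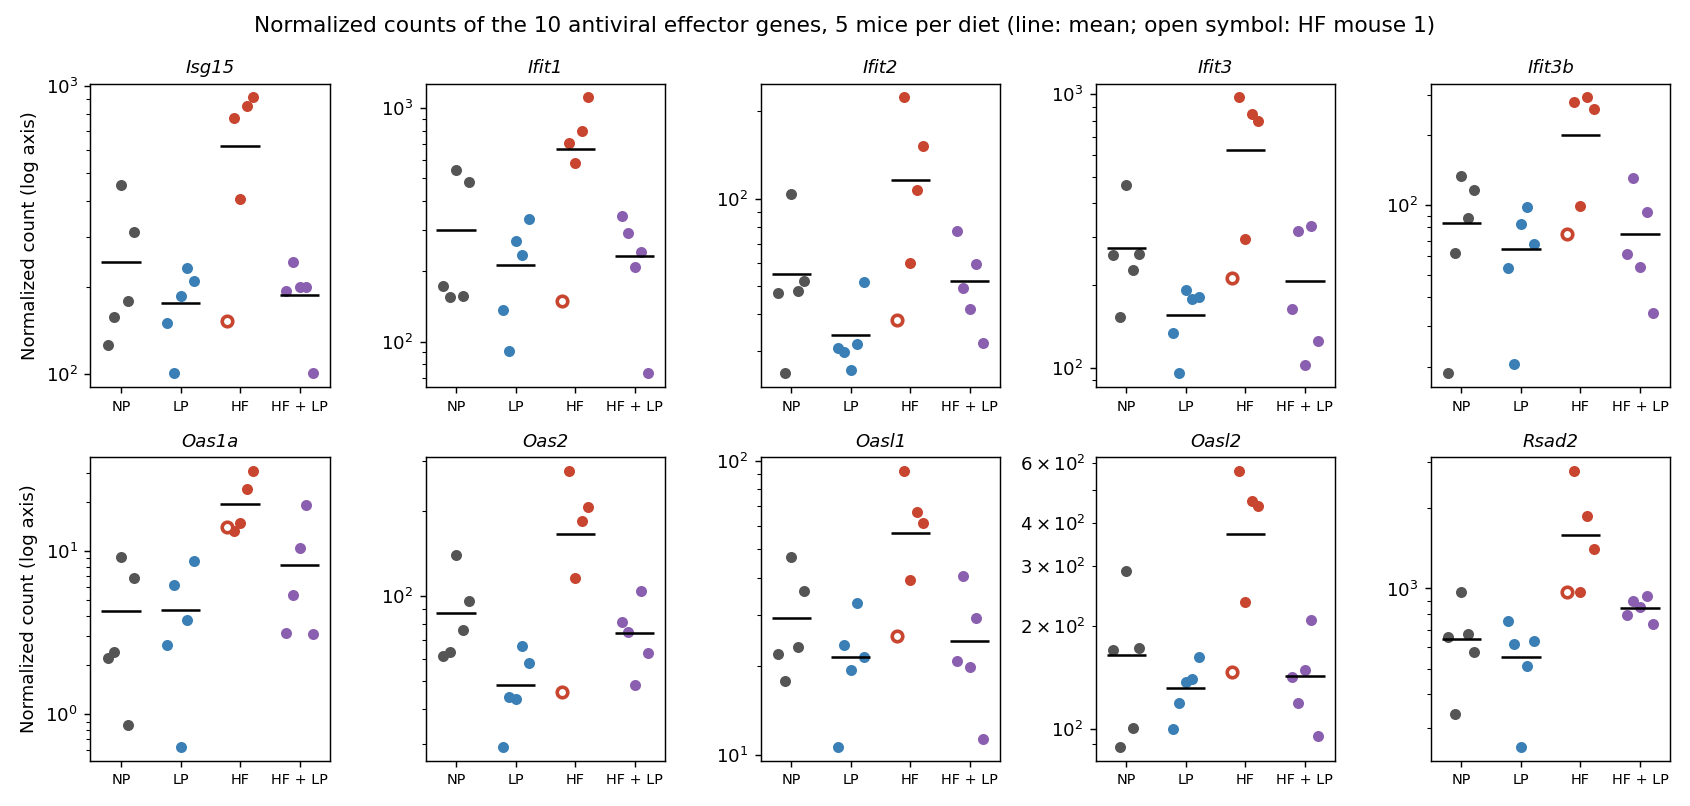
Normalized counts (log axis) of each member in each mouse, by diet group, with a line at the group mean and an open symbol for HF mouse 1. HF has the highest mean in all 10 panels, and HF mouse 1 is the lowest HF point in 9 of them.

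The first question was whether a high-fat diet alters these genes at normal protein. All 10 members were higher in HF than in NP, by 1.90-fold (Oas2) to 4.68-fold (Oas1a) in the fitted means, with a median log2 fold change of 1.19, against −0.00108 over all genes tested. None of the 10 was called at an adjusted p under 0.01, where 0.264% of the tested genes were called. At an unadjusted p under 0.05 all 10 were higher, against 5.17% of all genes tested. DESeq2 on the 4 groups called 1 member, Rsad2, as higher, and 0.469% of the genes it tested. Every HF mouse exceeded every NP mouse for 1 member, Oas1a, against 2.07% of genes.

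Isg15, the ubiquitin-like modifier, had normalized counts of 127, 158, 454, 180, and 311 in NP mice 3, 4, 5, 6, and 8. In HF mice 1 to 5 it had 153, 774, 405, 850, and 914. HF mice 2, 4, and 5 stood above every NP mouse, while HF mouse 1 lay among the lower NP mice and NP mouse 5 above HF mouse 3. The mean ± SD of 5 mice was 619 ± 327 in HF against 246 ± 136 in NP, and the log2 fold change was 1.34 (SE 0.40, adjusted p = 0.102, edgeR quasi-likelihood test with Benjamini-Hochberg adjustment, as for every adjusted p below unless another tool is named).

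Rsad2, the most abundant member, had 659, 337, 970.3, 677, and 578 in the NP mice in the same order. It had 966, 2760, 970.2, 1871, and 1408 in HF mice 1 to 5. HF mice 1 and 3 lay just below NP mouse 5, so the groups overlapped narrowly. The log2 fold change was 1.31 (SE 0.30, adjusted p = 0.0341, edgeR), the smallest adjusted p of the 10.

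The IFIT genes, which encode RNA-binding proteins, showed the same mice apart. Ifit1 had 173, 155, 544, 157, and 481 in NP and 149, 709, 582, 801, and 1112 in HF. Ifit3 had 259, 153, 467, 227, and 261 in NP and 212, 974, 295, 847, and 798 in HF. HF mice 2, 4, and 5 were above all NP mice for both genes, and HF mouse 3 was so for Ifit1. The log2 fold changes were 1.158 for Ifit1 (SE 0.49, adjusted p = 0.295, edgeR), 1.07 for Ifit2 (SE 0.40, adjusted p = 0.219), 1.20 for Ifit3 (SE 0.40, adjusted p = 0.156), and 1.27 for Ifit3b (SE 0.47, adjusted p = 0.224). Ifit2 means were 116 ± 73.9 in HF and 55.2 ± 29.0 in NP, and Ifit3b means 201 ± 105 and 83.8 ± 45.5 (SD, n = 5). Of the 75-base sequences in the last 500 bases of Ifit3 transcripts, 9.86% also occur in Ifit3b, so a small part of Ifit3 reads is uncertain between these copies.

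Among the 2′-5′ oligoadenylate synthetases, Oas1a had 2.20, 2.39, 9.18, 0.860, and 6.79 in NP and 14.0, 13.2, 14.8, 23.8, and 30.7 in HF. It was the member whose groups did not overlap, and the member with the fewest reads. Its log2 fold change was 2.23 (SE 0.60, adjusted p = 0.0679, edgeR). Of the 75-base sequences at its 3′ end 46.0% also occur in Oas1g, so its counts are uncertain. Oas2 had 61.6, 63.3, 140, 75.7, and 96.1 in NP and 45.8, 277, 116, 184, and 207 in HF, and HF mouse 1 was below every NP mouse. Its log2 fold change was 0.93 (SE 0.35, adjusted p = 0.222, edgeR).

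The OAS-like genes encode relatives of the synthetases, of which OASL1 is known as a translational inhibitor of Irf7. Oasl2 had 169, 88.3, 290, 101, and 172 in NP and 146, 567, 234, 463, and 448 in HF. Its log2 fold change was 1.19 (SE 0.33, adjusted p = 0.0788, edgeR). Oasl1 means were 57.0 ± 25.8 in HF against 29.3 ± 12.1 in NP (SD, n = 5), with a log2 fold change of 0.97 (SE 0.36, adjusted p = 0.230, edgeR). An antisense gene, Gm13822, overlaps the start of Oasl1 and had 69 counts over the 20 libraries.

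The HF and NP means hid a split within HF. HF mice 4 and 5 ranked among the top 3 of all 20 mice for 10 of 10 members, and HF mouse 2 for 9. HF mouse 1 was the lowest HF mouse for 9 members, the exception being Oas1a, and lay within the NP range for 7. NP mouse 5 was the highest NP mouse for all 10 and exceeded HF mouse 3 for 8. HF mouse 1 weighed 58.7 g, and HF mice 2 to 5 weighed 59.2, 56.1, 60.9, and 59.6 g. The part of body weight in this split was not tested. Without HF mouse 1 the median log2 fold change was 1.41, no member was called, and the smallest adjusted p was 0.0198 (Rsad2, edgeR), while without any other HF or NP mouse that of Rsad2 lay between 0.0250 and 0.0947. Without HF mouse 2, 7 of the 10 were at an unadjusted p under 0.05 and the median was 1.00.

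**Figure D3:**
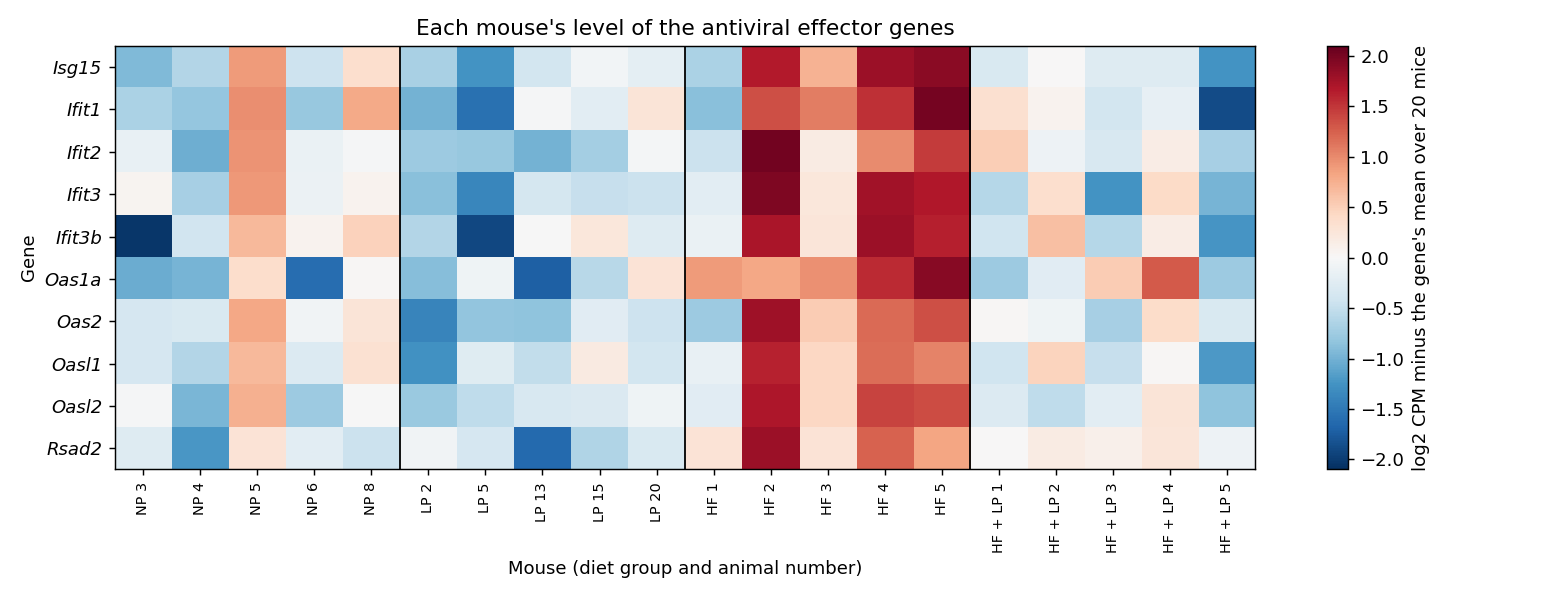
Log2 CPM of each member in each mouse minus the mean of that gene over 20 mice, with vertical lines between the diet groups. HF mice 2, 4, and 5 are high across nearly the whole column, HF mouse 1 is the lowest HF mouse for every gene except Oas1a, and NP mouse 5 is the highest NP mouse for each of the 10 genes.

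The next comparison asked whether low protein alters these genes in mice on the high-fat diet. It uses the same HF mice as the comparison above. All 10 members were lower in HF + LP than in HF, by 1.89-fold (Rsad2) to 3.29-fold (Isg15), with a median log2 fold change of −1.32 against 0.0171 over all genes. None was called, where 0% of the tested genes were called. At an unadjusted p under 0.05 all 10 were lower, against 2.43% of genes. DESeq2 on the 4 groups called 1 member, Isg15, as lower, and 0.126% of the genes it tested.

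Isg15 had 194, 245, 201, 200.5, and 101 in HF + LP mice 1 to 5. Each was below HF mice 2 to 5, and only HF mouse 1, at 153, lay within their range. The mean was 188 ± 52.7 (SD, n = 5), and the log2 difference from HF was −1.72 (SE 0.40, adjusted p = 0.217, edgeR). With each HF or HF + LP mouse left out it ranged from −1.97 (without HF mouse 1) to −1.54 (without HF mouse 5), and the adjusted p from 0.0170 (without HF mouse 1) to 0.642 (without HF + LP mouse 5, edgeR).

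Rsad2 was the member whose groups did not overlap, against 0.636% of genes lower in this way. It had 795, 896, 849, 940, and 737 in HF + LP mice 1 to 5, a narrow range below the 966 of the lowest HF mouse. Its coefficient of variation was 9.51% in HF + LP and 47.0% in HF. The log2 difference was −0.92 (SE 0.30, adjusted p = 0.537, edgeR), the smallest of the members.

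Ifit1 had 347, 291, 209, 243, and 73.2 in the HF + LP mice and Ifit3 had 164, 317, 103, 329, and 125. The highest HF + LP mouse for Ifit1 was below HF mice 2 to 5, and for Ifit3 it was above HF mouse 3. The log2 differences were −1.53 for Ifit1 (SE 0.49, adjusted p = 0.536, edgeR), −1.16 for Ifit2 (SE 0.40, adjusted p = 0.590), −1.59 for Ifit3 (SE 0.41, adjusted p = 0.251), and −1.44 for Ifit3b (SE 0.48, adjusted p = 0.575). Ifit2 and Ifit3b means in HF + LP were 51.9 ± 17.3 and 74.6 ± 37.7 (SD, n = 5).

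Oasl2 had 142, 119, 148, 208, and 94.9 in the HF + LP mice and a log2 difference of −1.38 (SE 0.33, adjusted p = 0.217, edgeR). Oas2 had 81.2, 74.8, 48.5, 104, and 62.9, a log2 difference of −1.16 (SE 0.35, adjusted p = 0.459, edgeR). All 5 HF + LP mice were below HF mice 2 to 5 for both. Oas1a, with 3.12, 5.34, 10.5, 19.0, and 3.09, had 4 of 5 HF + LP mice below every HF mouse, while HF + LP mouse 4 exceeded 3 HF mice. Its log2 difference was −1.25 (SE 0.54, adjusted p = 0.912, edgeR). Oasl1 had a mean of 24.4 ± 11.0 (SD, n = 5) and a log2 difference of −1.22 (SE 0.37, adjusted p = 0.459, edgeR).

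Within HF + LP, mouse 5 was the lowest for 8 of the 10 members and mouse 4 the highest for 5. The coefficient of variation was smaller in HF + LP than in HF for 8 members. It was smaller in LP than in NP for all 10 (for 8 without LP mouse 20). The members varied together, so these counts are not separate observations, and the share over all genes was not computed. With each HF or HF + LP mouse left out the median log2 difference ranged from −1.54 (without HF + LP mouse 4) to −1.18 (without HF + LP mouse 5). All 10 were at an unadjusted p under 0.05 except without HF mice 4 or 5 or HF + LP mice 1, 2, or 5, when Oas1a was not.

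**Figure D4:**
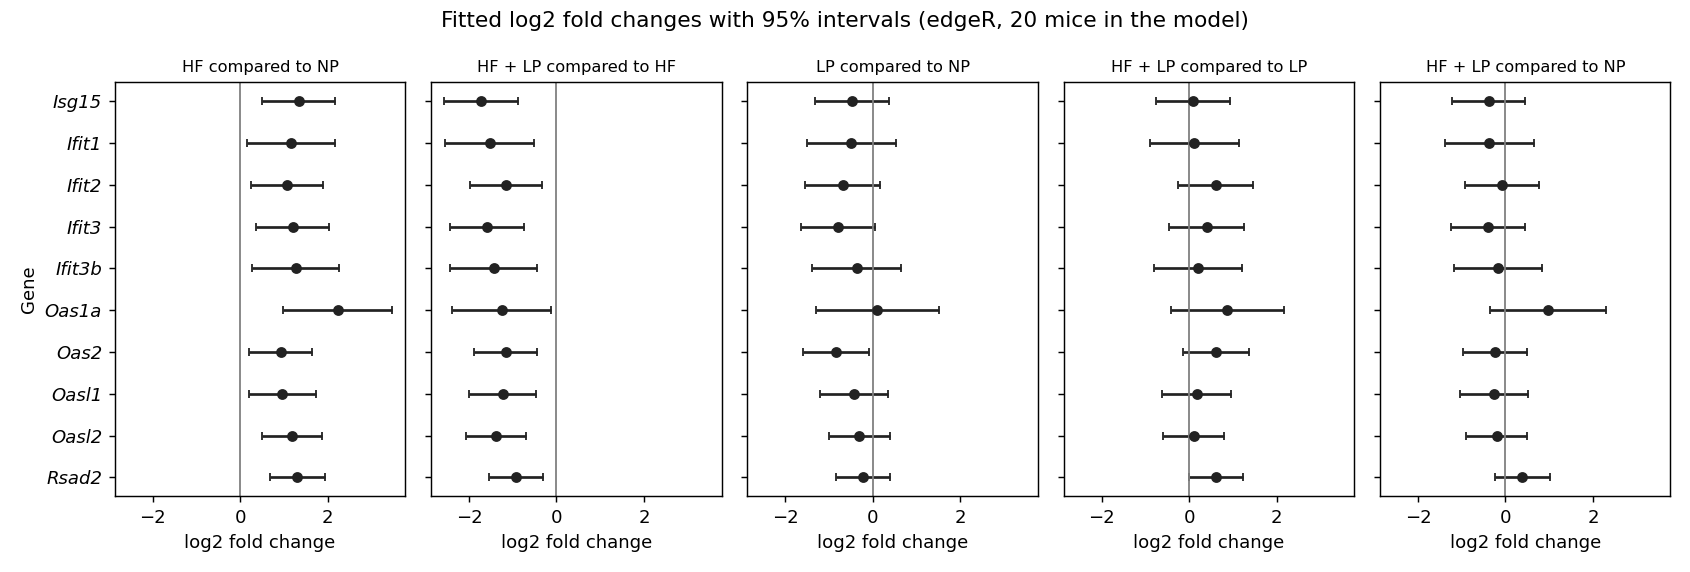
Fitted log2 fold changes of the 10 members in 5 comparisons, with 95% intervals from the edgeR model of 20 mice. The intervals exclude 0 for all members in HF compared to NP and in HF + LP compared to HF, for Oas2 in LP compared to NP, and for none in the remaining comparisons.

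Without the high-fat diet, 9 of 10 members were lower in LP than in NP and Oas1a was higher, with a median log2 fold change of −0.45. None was called (0% of genes), and 1 of 10 was lower at an unadjusted p under 0.05, Oas2, against 2.21% of genes. Oas2 had 29.3, 44.1, 43.4, 66.8, and 58.1 in LP mice 2, 5, 13, 15, and 20. LP mice 2, 5, 13, and 20 lay below the lowest NP mouse, 61.6, and the log2 difference was −0.84 (SE 0.36, unadjusted p = 0.0289, adjusted p = 0.641, edgeR). For Isg15 the LP mean was 176 ± 52.2 and the log2 difference −0.47 (SE 0.40, adjusted p = 0.875, edgeR). Without LP mouse 20 the median was −0.49, and 1 member was at an unadjusted p under 0.05, again Oas2 (−0.93, SE 0.39, unadjusted p = 0.0299, adjusted p = 0.999, edgeR). Isg15 then had an LP mean of 168 ± 56.1 (SD, n = 4) and differed by −0.56 (SE 0.44, adjusted p = 0.999, edgeR). Oas1a turned from 0.10 to −0.38, so all 10 were lower in LP. Without LP mouse 13 the median was −0.50. The count was 0 without any of LP mice 2, 5, or 13 or NP mice 5 or 8, and 3 without NP mouse 4.

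With protein low in both groups, all 10 members were higher in HF + LP than in LP, with a median of 0.30. None was called (0.1% of genes) and 0 of 10 had an unadjusted p under 0.05, against 6.26% of genes higher. The largest was Oas1a at 0.88 (95% interval −0.41 to 2.16), and Isg15 differed by 0.09 (95% interval −0.75 to 0.93). Without LP mouse 20 the median was 0.39 and the count 0, and without LP mouse 13 they were 0.37 and 0.

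Against NP, HF + LP mice had 2 members higher, Oas1a and Rsad2, and 8 lower, with a median of −0.22, which became 0.03 without NP mouse 5 and was negative without any other NP or HF + LP mouse. None was called (0.0286% of genes) and 0 had an unadjusted p under 0.05 with edgeR or DESeq2, against 3.9% of genes higher and 4.87% lower. Isg15 differed by −0.38 (95% interval −1.22 to 0.46) and Rsad2 by 0.39 (95% interval −0.23 to 1.01). These intervals leave room for differences either way, so the test does not show that HF + LP and NP levels are alike.

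The interaction asks whether the effect of fat differs between low and normal protein. It was negative for all 10, with a median of −0.92, and none was called (0% of genes). At an unadjusted p under 0.05 there were 2 members, Isg15 (−1.25, SE 0.57, adjusted p = 0.689, edgeR) and Oasl2 (−1.08, SE 0.47, adjusted p = 0.684), against 4.31% of genes negative at that level. The count of 2 became 0 without any of LP mouse 20, HF mice 2, 4, or 5, NP mice 4 or 6, or HF + LP mouse 5. It became 1 without NP mouse 3, LP mouse 15, or HF + LP mice 1 or 2.

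The members varied together from mouse to mouse. Over the 45 pairs of members the median Pearson r of log2 CPM over 20 mice was 0.83 (0.54 to 0.95), and after the group means were removed it was 0.73 (0.26 to 0.92). All pairs share libraries and scaling, and this is a description. Ranked by the same measure against the mean of the members, the most alike of the 10151 other genes with a base mean over 50 were Irf9 (r = 0.965), Rtp4 (0.963), Irf7 (0.952), Gbp3 (0.946), and Ifi44 (0.944). An r over 0.9 was found for 12 of them.

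The genes around the members in the pathway were examined as lists, whose counts at an unadjusted p under 0.05 stand against 5.17% of all genes higher in HF than in NP and 2.43% lower in HF + LP than in HF. Of 7 interferon genes 0 had counts to analyse. Of the 10 tested genes of the receptor and its factors that are reported here, 3 were higher in HF than in NP and 3 lower in HF + LP than in HF at an unadjusted p under 0.05, and none of those named was called. Irf9, the DNA-binding subunit of the complex, had a log2 fold change of 0.82 in HF (adjusted p = 0.0502, edgeR) and −0.94 in HF + LP compared to HF (adjusted p = 0.178). Irf7, a factor that amplifies interferon production, had 1.88 (adjusted p = 0.0397) and −2.25 (adjusted p = 0.134). Ifnar2, a receptor subunit, had 0.35 (adjusted p = 0.112) and −0.05 (adjusted p = 0.999).

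Irf7 and Usp18 placed the HF mice as the members did. Irf7 had 208, 1219, 479, 1463, and 1325 normalized counts in HF mice 1 to 5, and Usp18, which removes ISG15 from proteins, had 33.1, 204, 72.5, 193, and 139. HF mouse 1 was the lowest of the group for both.

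Of the 5 tested genes for ISG15 attachment and removal, 3 were higher in HF at an unadjusted p under 0.05 and 1 was lower in HF + LP. Usp18 differed by 1.47 (adjusted p = 0.0628, edgeR) and −1.38 (adjusted p = 0.347) in the 2 comparisons. Ube2l6, the conjugating enzyme, differed by 0.98 (adjusted p = 0.223) and −0.64 (adjusted p = 0.999), and Trim25, a ligase, by 0.28 (adjusted p = 0.361) and −0.22 (adjusted p = 0.999). Of 5 further tested genes of the OAS and RNase L branch, 1 was higher in HF and 2 lower in HF + LP. Oas3 differed by 1.66 (adjusted p = 0.134) and −1.71 (adjusted p = 0.473), from a mean of only 11.7 normalized counts. Oas1b differed by 0.60 (adjusted p = 0.472) and −1.01 (adjusted p = 0.559), and Oas1c by 0.56 (adjusted p = 0.535) and −0.51 (adjusted p = 0.999).

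Of 14 other antiviral effectors, 10 were higher in HF and 10 lower in HF + LP at an unadjusted p under 0.05, with medians of 0.55 and −0.63. Cmpk2, the neighbour of Rsad2 that encodes a nucleotide kinase, differed by 1.19 (adjusted p = 0.0410, edgeR) and −0.98 (adjusted p = 0.420). Mx1, a dynamin-like antiviral GTPase, differed by 1.61 (adjusted p = 0.0460) and −1.18 (adjusted p = 0.537), and Bst2 (tetherin) was 2.16-fold higher in HF (adjusted p = 0.0566) and differed by −1.33 on the log2 scale (adjusted p = 0.172).

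Markers of other cells were read beside the members, against the same 5.17% and 2.43% of genes. Summed over 10 macrophage markers, CPM was 312 to 414 in NP, 242 to 563 in LP, 419 to 554 in HF, and 317 to 430 in HF + LP, and HF mouse 1 had the lowest HF value. Of the 10, 6 were higher in HF than in NP and 2 lower in HF + LP than in HF at an unadjusted p under 0.05. The sum of 6 monocyte and neutrophil markers was 9.34 to 14.4 in NP, 10.7 to 26.8 in LP, 9.74 to 31.4 in HF, and 13.2 to 24.5 in HF + LP, and HF mouse 1 again had the lowest HF value, 9.74. All 5 of these markers that could be tested were higher in HF at an unadjusted p under 0.05. Among the same markers in HF + LP mice, 3 of the 5 had a lower level than in HF (2 at an unadjusted p under 0.05) and 2 a higher one, with a median of −0.23, and compared to NP all 5 had a higher level (2 at that level). In LP compared to NP, where 9 of 10 members were lower, 9 of the 10 macrophage markers had a higher level (0 at an unadjusted p under 0.05), as did all 5 monocyte and neutrophil markers (3 at that level, against 5.02% of genes). Without LP mouse 20 these counts were 9 (0) and 5 (2), and without LP mouse 13 only 2 of the macrophage markers had a higher level. All 5 adipocyte markers had a higher level in LP than in NP, with a median of 2.302 and 2 at an unadjusted p under 0.05, and all 5 were lower in HF + LP than in LP at that level, against 9.66% of genes. Without LP mouse 13 these counts at an unadjusted p under 0.05 were 0 and 4, and without LP mouse 20 they were 1 and 5. Fibroblast markers (6) had a higher level in HF than in NP for 6 of 6 (median 0.18, 0 at an unadjusted p under 0.05) and a lower one in HF + LP than in HF for 6 of 6 (median −0.26, 1 at that level), the same signs as the members. Erythroid markers (5) had a higher level than in NP for 5 of 5 in HF (median 0.58, 1 at that level). The same 5 of 5 held in LP (median 0.61, 1 at that level, and 0 without LP mouse 13 or LP mouse 20). In HF + LP it was also 5 of 5 (median 0.87, 4 at that level, against 3.9% of genes). Of 6 endothelial markers, 5 had a higher level in HF than in NP (median 0.18, 0 at that level). In HF + LP compared to HF 3 were higher and 3 lower (1 lower at that level). Of 3 tested B and plasmacytoid dendritic cell markers, 2 had a higher level in both comparisons, with 0 at that level. Of 3 tested T and NK cell markers, 3 and 2 had a higher level, again with 0 at that level. The part of these cells in the members' levels was not tested. The sum of 8 cardiomyocyte markers was 41202 to 50955 in NP and 31380 to 47069 in LP. It was 31067 to 42130 in HF and 33331 to 47858 in HF + LP. All 8 had a lower level in HF than in NP, 4 at an unadjusted p under 0.05, against 7.91% of genes. In LP 8 were lower than in NP (0 at that level), or 7 without LP mouse 20 and 6 without LP mouse 13. In HF + LP 7 were lower than in NP (1 at that level, against 4.87% of genes). Mitochondrial genes took 38.1 to 39.8% of the counts in HF, 41.3 to 47.1% in NP, 38.5 to 47.2% in HF + LP, and 35.4 to 44.5% in LP. The TMM scaling factors were 1.02 to 1.101 in HF, 0.906 to 0.998 in NP, 0.875 to 1.01 in HF + LP, and 0.934 to 1.157 in LP. HF and NP did not overlap in either, and the part of these in the members' differences was not tested.

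The names of the libraries carry a number from 1 to 3 whose meaning is not given. Within number 1 (1 HF and 1 NP mouse) the median log2 ratio of the members was 0.49 in HF compared to NP, within number 2 it was 2.09, and within number 3 (3 HF and 2 NP mice) 0.76. For HF + LP compared to HF they were −0.16, −1.62, and −1.41, and HF mouse 1 was the only HF mouse of number 1. For LP compared to NP they were 0.11, 0.19, and −1.08, so the direction of that comparison did not hold within numbers 1 and 2. For HF + LP compared to NP they were 0.37, 0.55, and −0.89, so its direction did not hold there either. LP mouse 20 was the only LP mouse of number 2, so that without it number 2 gives no value for LP.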

How the data were processed

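QuantSeq 3′ mRNA libraries were made by the authors from left ventricle, read over 75 bases, and aligned in BlueBee. The deposited values are raw counts of reads for each Ensembl gene in each mouse, not normalized. The submitters' processing notes name GRCm38 and DESeq2 1.22.2. The counting program and its handling of shared reads are not given in the sources used here. The gene with the fewest deposited counts had 60 in all.

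These counts entered edgeR 4.0.16 (R 4.3.3). The filterByExpr filter, set by diet, kept 13991 genes, which were scaled by TMM and fitted with a quasi-likelihood model of all 20 libraries. Benjamini-Hochberg adjustment ran over all tested genes, and a gene was called at an adjusted p under 0.01 with a base mean over 50. Standard errors came from the F statistic. Log2 CPM used a prior count of 2. The method was tested on simulated data. Gene positions are from GENCODE M21, and all 20 value columns were matched to mice by library name. Total counts of 12559607 to 23331907 set the counting precision, which was low for Oas1a, with 1 to 7 reads per NP mouse. Counting error and spread between mice were not separated.

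The members and the lists were chosen with earlier results of these data known, so no pattern in them is independent support. Named genes were the members, up to 3 genes of each pathway list with the smallest p in HF compared to NP, Irf7, Usp18, and Cmpk2, and the 5 genes most like the members. A further item under this rule is not reported here. Alternatives were RLE size factors, DESeq2 1.42.0, an adjusted p under 0.05, no filter, a minimum of 10 counts in each of the libraries, the library number as covariate, a block on animal number, only the compared groups, and each mouse left out.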

Additional observations from a re-analysis of the deposited data

Results flagged for a closer look

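Among the 40 combinations of member and diet group, 1 had a mouse set apart from the rest of its group. Ifit2 in LP was highest in mouse 20, with 51.7 normalized counts against 31.5 in the nearest LP mouse, a gap of 0.779 of the group's range where 0.71 is the 95% limit for 5 mice. Chance flags about 1 in 20 groups. LP mouse 20 is also the library with T and NK cell marker transcripts, and the part of these in its Ifit2 level was not tested.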

How the results depend on the processing

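In HF compared to NP, the number of members called was 1 with DESeq2 on all groups, 1 with DESeq2 on the compared groups, and 1 at an adjusted p under 0.05 (Rsad2 each time), where edgeR called 157 of all genes at 0.05. In HF + LP compared to HF it was 1 (Isg15) and 2 (Isg15 and Oasl2) with DESeq2 on all and on the compared groups. Over all genes in the first comparison DESeq2 called 158 on all groups, against 37 with edgeR, and 377 on the compared groups, against 61 with edgeR. In the second it called 16 and 25, against 0 and 0. The number at an unadjusted p under 0.05 in LP compared to NP was 2 with either DESeq2 fit and 2 with only the compared groups, and in HF + LP compared to LP it was 1 and 3 with DESeq2 and 2 with only the compared groups. The cause of these differences was not tested. With the library number as a covariate, the log2 difference of LP from NP was −0.31 for Isg15 and −0.72 for Oas2. In the main fit these were −0.47 and −0.84. The log2 fold change of Rsad2 in HF compared to NP was then 1.33, against 1.31. That of Isg15 in HF + LP compared to HF was −1.61, against −1.72.

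Same-numbered mice are different animals, and their deviations correlated from −0.48 to 0.13 over 3 pairs in HF and NP and from −0.55 to 0.48 over 5 pairs in HF + LP and HF, so the numbers do not pair them. With the animal number as a replicate block, the members at an unadjusted p under 0.05 were 5 in HF compared to NP, 3 in LP compared to NP (median −1.35), 3 in HF + LP compared to LP (median 1.222), and 0 for the interaction (median 0.0502, a turn of sign).

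With each mouse left out, called members stayed at 0. Members at an unadjusted p under 0.05 ranged from 7 to 10 in HF compared to NP, 9 to 10 in HF + LP compared to HF, 0 to 3 in LP compared to NP, 0 to 1 in HF + LP compared to LP, 0 to 0 in HF + LP compared to NP, and 0 to 3 for the interaction. Their medians ranged from 1.00 to 1.48, −1.54 to −1.18, −0.63 to −0.16, 0.14 to 0.46, −0.35 to 0.03, and −1.18 to −0.73 in the same order. HF remained the group with the highest mean for all 10 members with RLE size factors. The order of the other groups was not compared under that setting. The 5 mice of a group and few reads for Oas1a limit what these tests can show.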
